A study of Mus musculus with 10 samples.

Results

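The guide strands of the let-7 family are the 5p arms of let-7a, let-7b, let-7c, let-7d, let-7e, let-7f, let-7g, let-7i and miR-98. The deposited table lists them as mmu-let-7a-5p, mmu-let-7b-5p, mmu-let-7c-5p, mmu-let-7d-5p, mmu-let-7e-5p, mmu-let-7f-5p, mmu-let-7g-5p, mmu-let-7i-5p and mmu-miR-98-5p. They were chosen by name, and they are 9 of the 1907 mature miRNA entries counted. The cells were E14 mouse embryonic stem cells of the 129/Ola background, grown without feeder cells on gelatine in medium with 15% serum and LIF at 100 U/mL. Small RNA was sequenced from 5 groups of 2 libraries, which served to profile cells that lack single steps of the RNAi pathway. Wild-type cells (WT) carried no knockout. Dgcr8_KO cells lacked Dgcr8 and Drosha_KO cells lacked Drosha, the 2 proteins of the Microprocessor, which cuts hairpins out of primary transcripts in the nucleus. Dicer_KO cells lacked Dicer, which cuts the hairpin into a duplex of 2 mature strands. Ago12_KO cells lacked Ago1 and Ago2, 2 of the Argonaute proteins that hold the guide strand. No source used here gives the mutations or says how many clones each knockout line stands for. Small RNA reads do not measure the mRNAs of the deleted genes, so the knockout labels could not be checked in these data.

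let-7 was found in worms as a regulator of developmental timing, and its mature sequence is shared by most animals. In mouse embryonic stem cells the let-7 genes are transcribed, but the protein Lin28 binds the loop of many let-7 precursors and blocks their maturation, so mature let-7 is scarce there and rises when the cells differentiate. Mature let-7 represses mRNAs such as Hmga2, Lin28 itself and Ras genes through its seed, the bases near the 5′ end that pair with the target.

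All 9 strands share their seed and are 22 bases long, as the mature sequences in RefSeq (GRCm38.p6) show. They are printed here, 5′ to 3′ with the seed (bases 2 to 8) in capitals, because the members are told apart by few bases, all outside the seed.
let-7a-5p: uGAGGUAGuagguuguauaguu
let-7b-5p: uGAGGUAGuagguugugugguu
let-7c-5p: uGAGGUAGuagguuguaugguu
let-7d-5p: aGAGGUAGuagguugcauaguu
let-7e-5p: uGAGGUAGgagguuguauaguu
let-7f-5p: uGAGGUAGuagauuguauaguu
let-7g-5p: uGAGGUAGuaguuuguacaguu
let-7i-5p: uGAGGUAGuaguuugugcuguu
miR-98-5p: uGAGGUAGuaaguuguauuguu

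With positions counted from 1 at the 5′ end and the base of let-7a written first, let-7c differs from let-7a by A19G, let-7e by U9G and let-7f by G12A. let-7b differs by A17G and A19G, let-7d by U1A and U16C, let-7g by G12U and U18C, and miR-98 by G11A and A19U. let-7i is the most distant from let-7a, with G12U, A17G, U18C and A19U. No source used here gives the number of mismatches the counting allowed, so reads of members that differ by 1 base (let-7a with let-7c, let-7e or let-7f, and let-7b with let-7c) may have been shared between entries. Another 2 entries of the table carry the same seed, let-7k and miR-1961, and both had 0 counts in all 10 libraries.

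The 9 guides come from 12 hairpins, placed here on GRCm38.p6 with the GENCODE M21 annotation. Mirlet7a-1 (chr13:48538179-48538272), Mirlet7f-1 (chr13:48537829-48537917) and Mirlet7d (chr13:48536012-48536114) lie on the minus strand in an exon of the lincRNA 6720427I07Rik. Mirlet7c-2 (chr15:85706603-85706697) and Mirlet7b (chr15:85707319-85707403) lie on the plus strand in an exon of Lncppara, 621 bases apart. Mirlet7f-2 (chrX:151912346-151912428) and Mir98 (chrX:151913214-151913321) lie 785 bases apart in an intron of Huwe1. Mirlet7g (chr9:106178840-106178927) is in an intron of Wdr82, Mirlet7e (chr17:17830352-17830444) in an intron of Spaca6 and Mirlet7c-1 (chr16:77599657-77599750) in an intron of Mir99ahg. Mirlet7a-2 (chr9:41536716-41536811) is in introns of the transcripts 3110039I08Rik and Gm49317, and Mirlet7i (chr10:122985640-122985724, minus strand) overlaps an exon of the pseudogene D630033A02Rik. The guides of let-7a, let-7c and let-7f each come from 2 hairpins, and a count of the guide does not say which.

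Values are deposited read counts, given as CPM, counts per 1000000 of the library's counts over all miRNA entries, so a change is a change of share and not of amount per cell. Totals were 1943868 and 2357868 counts in WT, 289539 and 408654 in Dgcr8_KO, 229407 and 349312 in Ago12_KO, and only 37476 to 45222 in the 4 Drosha_KO and Dicer_KO libraries, where 1 count is worth 22.1 to 26.7 CPM. These totals count miRNA entries only, not all reads sequenced, and why they differ between groups was not tested. A guide with no count in both libraries of a group could still reach 37.6 CPM in Drosha_KO, 36.3 in Dicer_KO, 4.3 in Dgcr8_KO, 5.18 in Ago12_KO and 0.697 in WT (3 counts over the group, counting error only). The stem cell markers of the miR-290 to miR-295 and miR-302 and miR-367 clusters held 18.5% to 19.8% of the counts in WT. They held 16.0% to 21.0% in Dgcr8_KO and Drosha_KO, 11.5% to 12.5% in Ago12_KO and 3.25% to 3.63% in Dicer_KO. Nearly all of this was miR-290 to miR-295, which alone held 18.5% and 19.8% in WT and 21.0% and 20.5% in Drosha_KO. Of 28 stem cell entries, WT had counts for 22, but Drosha_KO for only 15 and Dicer_KO for 16. Both arms of miR-302a, miR-302b, miR-302c and miR-302d were at 0 in the Drosha_KO libraries, which had low totals. So were both arms of miR-302b, miR-302c and miR-367 in the Dicer_KO libraries, which had low totals too. Fibroblast and feeder markers held 4.37% to 4.59% in WT and 1.37% to 3.63% in the mutants, with miR-214-3p at 0 in all groups. Neural markers held 0.276% to 0.300% in WT and 0.024% to 0.158% in the mutants (miR-137-3p at 0). Endoderm markers held 0.156% to 0.161% in WT and 0.0174% to 0.0509% in Dgcr8_KO, Drosha_KO and Dicer_KO. In Ago12_KO they held 0.682% to 1.17% (miR-122-5p at 0). Blood markers held 0.141% to 0.181% in WT, 0.477% to 0.481% in Dgcr8_KO, 0.352% to 0.564% in Drosha_KO and 0.0427% to 0.0597% in Dicer_KO. In Ago12_KO they held 0.868% to 1.13% (miR-223-3p and miR-451a at 0). Members of a list went both ways against WT (edgeR adjusted p under 0.05). In Ago12_KO 2 of 3 tested endoderm entries were higher and 1 lower, and 3 of 4 blood entries higher and 1 lower. Of 16 tested stem cell entries, 6 were higher and 6 lower in Dgcr8_KO, and 7 and 4 in Drosha_KO. Over all tested entries these shares were 28.7% and 25.8% in Ago12_KO, 32.4% and 41.0% in Dgcr8_KO, and 26.2% and 31.6% in Drosha_KO. The Dicer_KO libraries held 46.9% and 48.5% of their counts in 5 entries that resemble fragments of other RNAs, which held at most 4.85% elsewhere. The part of these marker and fragment shares in the results on let-7 was not tested, except where totals without the fragment-like entries are given. The replicates of Drosha_KO differed over 4-fold at 7 of 95 entries with at least 50 counts, against 2 of 233 in Dgcr8_KO, which were let-7a and let-7f. The labels give the WT libraries different codes (E14_P25 and E14_P33) and do not say what these stand for. They do not call replicates separate cultures, so a p-value here reflects the spread of these libraries alone, and that may be technical. Only Dgcr8_KO and Ago12_KO libraries carry date-like codes in their labels, and preparation and group cannot be told apart. In these bulk samples, fewer cells of a type and less RNA per cell cannot be told apart.

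The 9 guides together held a small share of the miRNA counts in WT and a larger one in Drosha_KO. The family took 0.175% and 0.191% of the counts in the WT libraries, 0.688% and 0.556% in Drosha_KO, 0.368% and 0.160% in Dgcr8_KO, 0.136% and 0.193% in Ago12_KO, and 0.0597% and 0.0267% in Dicer_KO. Drosha_KO lay above WT and Dicer_KO below it without overlap, while Dgcr8_KO and Ago12_KO each had 1 library below and 1 library above both WT libraries. The mean share was 3.4-fold higher in Drosha_KO (0.622% ± 0.0938 against 0.183% ± 0.0112, SD, n = 2) and 4.23-fold lower in Dicer_KO (0.0432% ± 0.0233), each with a two-sided exact permutation p of 0.333, the smallest that 2 against 2 libraries can give. Dgcr8_KO (0.264% ± 0.147) and Ago12_KO (0.165% ± 0.0404) each gave an exact permutation p of 1. The Dicer_KO shares rest on 27 and 10 counts, with exact 95% binomial intervals of 0.0393% to 0.0869% and 0.0128% to 0.0491%. Per 100 counts of the stem cell miRNAs miR-290 to miR-295, the guides came to 0.956 ± 0.0107 in WT, 2.99 ± 0.393 in Drosha_KO, 1.62 ± 0.882 in Dgcr8_KO, 1.38 ± 0.413 in Ago12_KO and 1.24 ± 0.583 in Dicer_KO, so on this scale the mean of Dicer_KO and that of Ago12_KO lay above that of WT. Both Ago12_KO libraries (1.09 and 1.68) lay above the WT libraries (0.948 and 0.963), whereas those of Dicer_KO lay on either side (1.65 and 0.824), so without Dicer_KO replicate 1 the direction turns.

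**Figure D1:**
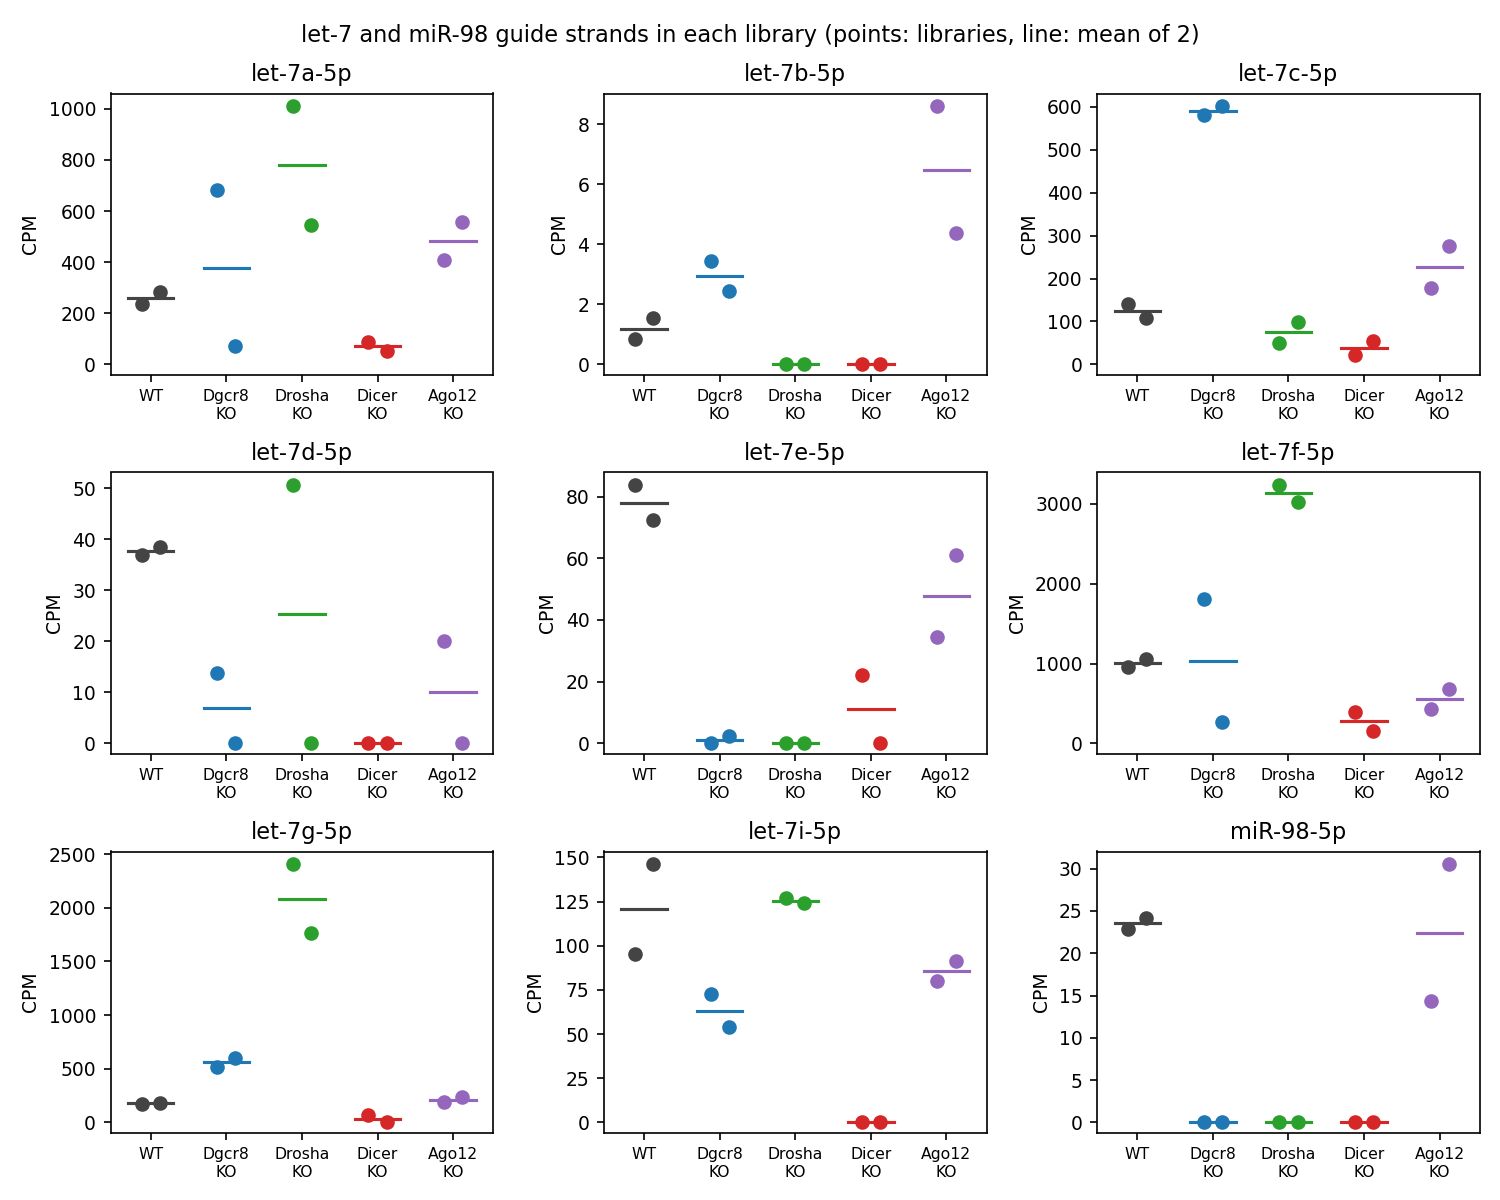
CPM (counts per 1000000) of each of the 9 guide strands in the 10 libraries, by group. Points are libraries, lines are means of 2, and each panel has its own scale. let-7g-5p and let-7f-5p are highest in Drosha_KO, let-7c-5p in Dgcr8_KO, and the 2 Dgcr8_KO points of let-7a-5p and let-7f-5p lie far apart.

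let-7f was the leading member in WT. let-7f-5p stood at 958 and 1053 CPM in WT, 3240 and 3027 in Drosha_KO, 1806 and 269 in Dgcr8_KO, 432 and 676 in Ago12_KO, and 398 and 160 in Dicer_KO. Both Drosha_KO libraries lay above all others, and both Dicer_KO and both Ago12_KO libraries below WT. let-7a-5p stood at 236 and 282 CPM in WT, 1012 and 546 in Drosha_KO, 684 and 71.0 in Dgcr8_KO, 407 and 558 in Ago12_KO, and 88.5 and 53.4 in Dicer_KO. For let-7a the only neighbours in the order of means that did not overlap were WT and Dicer_KO.

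let-7g, from its own intronic hairpin, was the only guide with no overlap between neighbours in the order of means. let-7g-5p stood at 2404 and 1762 CPM in Drosha_KO, 518 and 600 in Dgcr8_KO, 186 and 235 in Ago12_KO, 174 and 182 in WT, and 66.3 and 0 in Dicer_KO, and no neighbours in this order overlapped. let-7c took another order. let-7c-5p stood at 580 and 602 CPM in Dgcr8_KO, 177 and 275 in Ago12_KO, 141 and 109 in WT, 50.6 and 99.2 in Drosha_KO (2 and 4 counts), and 22.1 and 53.4 in Dicer_KO (1 and 2 counts), and only Drosha_KO and Dicer_KO overlapped.

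let-7i, let-7e, let-7d and miR-98 were never higher in both libraries of a mutant than in both of WT. let-7i-5p stood at 95.4 and 146 CPM in WT, 127 and 124 in Drosha_KO, 80.2 and 91.5 in Ago12_KO, 72.5 and 53.8 in Dgcr8_KO, and had no count in Dicer_KO. let-7e-5p stood at 83.6 and 72.5 CPM in WT and 34.4 and 61.0 in Ago12_KO, and it had 1 count in Dgcr8_KO, 0 in Drosha_KO and 1 in Dicer_KO. Both WT libraries lay above all 8 mutant libraries for let-7e, and both Ago12_KO libraries above the other 6. As 3 counts are worth 66.3 to 80.1 CPM in a Drosha_KO or Dicer_KO library, this order was not resolved for single libraries there. Ago12_KO was 3.72-fold above Dicer_KO by pooled counts, with an exact 95% counting interval of 0.61 to 152. let-7d-5p stood at 36.9 and 38.6 CPM in WT, 50.6 and 0 in Drosha_KO, 13.8 and 0 in Dgcr8_KO, 7 and 0 counts in Ago12_KO, and had no count in Dicer_KO. miR-98-5p stood at 22.9 and 24.2 CPM in WT and 14.3 and 30.5 in Ago12_KO, which overlapped, and had no count in the 6 libraries of the other groups. Against 101 counts in WT, 0 in Dgcr8_KO put miR-98 at least 5.48-fold lower there, while the low totals of Drosha_KO and Dicer_KO give no such bound above 1. let-7b-5p, transcribed beside let-7c-2, had 5 counts in WT, 2 in Dgcr8_KO and 4 in Ago12_KO (8.59 and 4.36 CPM), and none in Drosha_KO or Dicer_KO. let-7b and miR-98 fell below the filter on low counts and were not tested, so 7 of the 9 guides were tested.

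**Figure D2:**
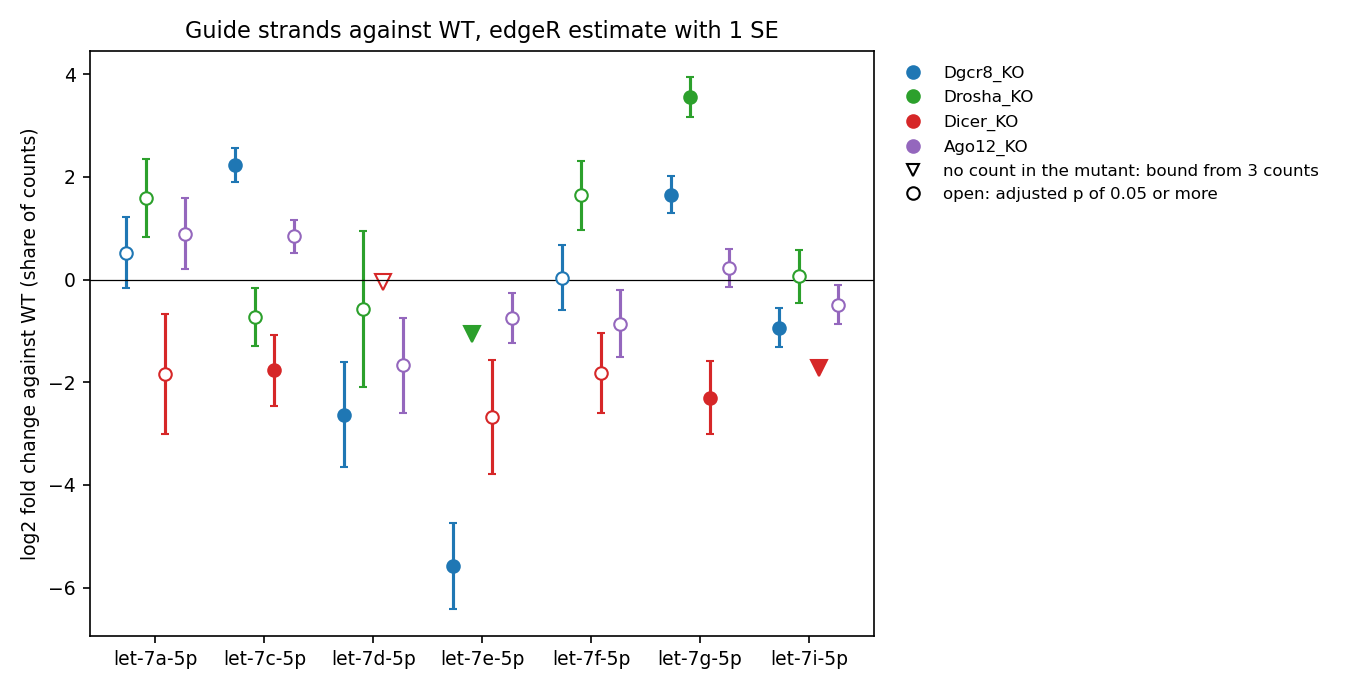
log2 fold change of the 7 tested guide strands in each mutant against WT, as estimated by edgeR, with bars of 1 standard error (SE). Filled symbols have an adjusted p under 0.05, and triangles are bounds from 3 counts where the mutant had no count. let-7g-5p in Drosha_KO (3.55) is the highest point, and let-7e-5p in Dgcr8_KO (-5.58, from 1 count) the lowest.

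The comparison of Dgcr8_KO with WT asks how the share of each guide differs without Dgcr8. In Dgcr8_KO the family split: let-7c and let-7g rose, let-7e, let-7d and let-7i fell, and let-7a and let-7f were not called, with 1 library above WT and 1 below. let-7c went from 125 ± 22.4 to 591 ± 15.4 CPM (SD, n = 2), a log2 fold change of 2.24 (SE 0.33, edgeR adjusted p = 0.000117), and let-7g from 178 ± 5.52 to 559 ± 57.6 CPM, one of 1.65 (SE 0.36, edgeR adjusted p = 0.00172). With counts left unscaled, which keeps the lower totals of the mutant, both turned to lower values of -0.394 and -0.953 that were not called. let-7e, with 338 counts in WT and 1 in Dgcr8_KO, was 54.9-fold lower by pooled counts (exact 95% counting interval 9.8 to 2174; edgeR adjusted p = 0.000199), and its call was kept in all 21 alternatives run. let-7d (162 counts against 4; 37.7 ± 1.19 against 6.91 ± 9.77 CPM, edgeR adjusted p = 0.0399) and let-7i (121 ± 35.5 against 63.2 ± 13.2 CPM, -0.94, SE 0.38, edgeR adjusted p = 0.0468) passed narrowly. Without Dgcr8_KO replicate 2, WT replicate 1 or WT replicate 2, the edgeR adjusted p of let-7d was 0.281, 0.0805 and 0.0837. Without Dgcr8_KO replicate 1, Dgcr8_KO replicate 2, Drosha_KO replicate 1, WT replicate 1 or WT replicate 2, that of let-7i was 0.105, 0.29, 0.0521, 0.0633 and 0.339. Thus 2 of 7 tested guides were called higher, where 32.4% of all 481 tested entries were, and 3 were called lower, where 41.0% were, shares close to the background. The median log2 fold change was 0.04 over the 7 guides and -0.41 over all tested entries.

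The Dgcr8_KO libraries disagreed on let-7a and let-7f far more than on other miRNAs. let-7a was 9.64-fold higher in replicate 1 than in replicate 2 (198 and 29 counts, exact 95% counting interval 6.5 to 14.8), and let-7f was 6.71-fold higher (5.45 to 8.32). They ranked first and second among the 233 entries with at least 50 counts over both libraries, were the 2 (0.858%) that differed over 4-fold, and were followed by miR-411-5p at 3.02-fold. The median difference between the libraries was 0.15 on the log2 scale. let-7c and let-7g, with ratios of 0.964 (0.787 to 1.18) and 0.864 (0.7 to 1.06), differed by less than counting error. let-7d, transcribed beside let-7a-1 and let-7f-1, had 4 counts in replicate 1 and 0 in replicate 2. This was not resolved, as the exact 95% counting interval of its ratio began at 0.932. let-7d-3p had 0 and 1 counts, and the 3p strand shared by let-7a-1 and let-7c-2 had 3 and 10 (10.4 and 24.5 CPM). For the comparison with WT, the choice of library set the direction. let-7a was at -1.86 without replicate 1 (edgeR adjusted p = 0.011) and at 1.4 without replicate 2 (edgeR adjusted p = 0.0199), where all libraries gave 0.52 (SE 0.69, edgeR adjusted p = 0.505). let-7f was at -1.9 without replicate 1 (edgeR adjusted p = 0.0109), where all libraries gave 0.04 (SE 0.64, edgeR adjusted p = 0.954). In the other 4 groups let-7a differed by at most 1.85-fold between replicates and let-7f by at most 2.49-fold (in Dicer_KO, on 18 and 6 counts).

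**Figure D3:**
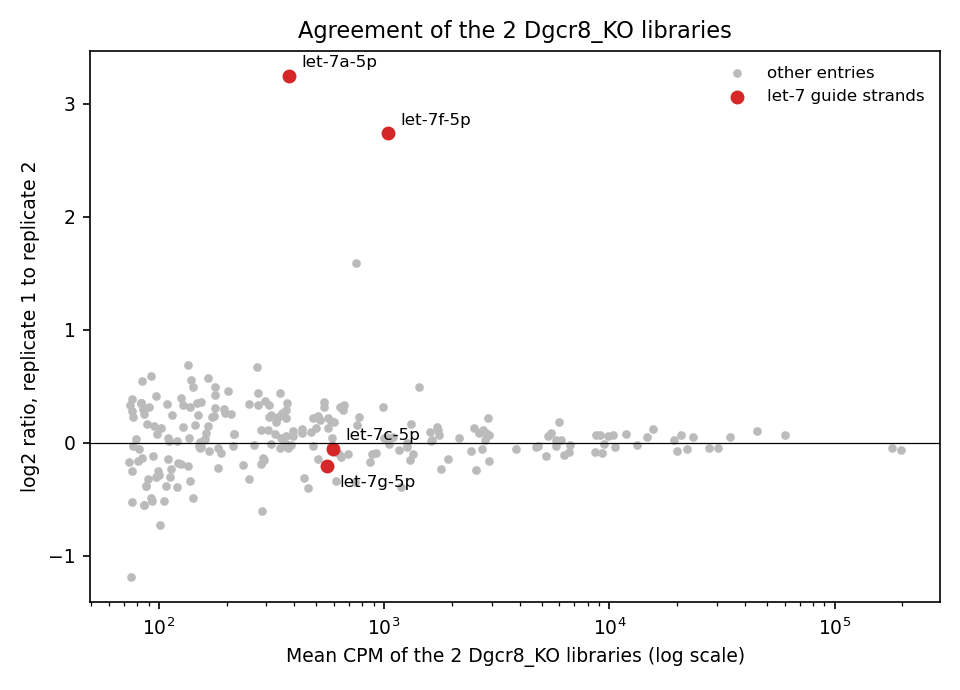
log2 ratio of Dgcr8_KO replicate 1 to replicate 2 against the mean CPM of both (log scale), for the 233 entries with at least 50 counts over both libraries. let-7a-5p and let-7f-5p (red) lie above all grey points, while let-7c-5p and let-7g-5p lie near 0. The other 5 guides had fewer counts.

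Drosha_KO was compared with WT for the other Microprocessor protein. let-7g rose 11.7-fold, from 178 ± 5.52 to 2083 ± 455 CPM, or by 3.55 on the log2 scale (SE 0.39, edgeR adjusted p = 1.74e-05), and with counts left unscaled it turned to -2.2. It was 1 of 7 tested guides called higher, where 26.2% of the tested entries were. let-7e, with 338 counts in WT and none in Drosha_KO, was at least 2.08-fold lower and the 1 guide called lower (edgeR adjusted p = 0.017), where 31.6% of entries were. This call was lost without Drosha_KO replicate 1 or 2 (edgeR adjusted p = 0.0747 and 0.069). let-7f and let-7a did not overlap with WT but missed the threshold. let-7f stood at 3133 ± 150 against 1006 ± 66.5 CPM (1.64, SE 0.67, edgeR adjusted p = 0.0535) and let-7a stood at 779 ± 330 against 259 ± 32.3 CPM (1.59, SE 0.76, edgeR adjusted p = 0.0935). All groups share 1 estimate of the spread in this fit, and without Dgcr8_KO replicate 1 or 2 both were called, let-7f with an edgeR adjusted p of 0.00549 and 0.00594 and let-7a with 0.00645 and 0.00706; without Drosha_KO replicate 2 both were called too, at 0.0199 and 0.021. let-7i differed by 0.06 (SE 0.52), let-7c by -0.73 (SE 0.57) on 6 counts and let-7d by -0.58 (SE 1.52) on 2 counts. The median was 0.06 over the 7 guides and -0.87 over all tested entries, or 0.06 and -0.01 with entries at no count placed at their bound.

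Set directly against Dgcr8_KO, Drosha_KO had more let-7g and less let-7c. let-7g was higher by 1.90 (SE 0.37, edgeR adjusted p = 0.00565) and let-7c lower by 2.97 on the log2 scale (SE 0.52, edgeR adjusted p = 0.00298; 6 counts in Drosha_KO), a fold of 7.84. These were 1 of 7 guides called higher, where 8.32% of entries were, and 1 called lower, where 5.61% were. The call of let-7g was lost without Dgcr8_KO replicate 1 or 2 (edgeR adjusted p = 0.0786 and 0.0614), and with counts left unscaled let-7g turned to -1.25. let-7a and let-7f gave 1.07 (edgeR adjusted p = 0.417) and 1.60 (edgeR adjusted p = 0.142), and without Dgcr8_KO replicate 1 they gave 3.45 and 3.54 and were called (edgeR adjusted p = 0.00511 for each). In let-7c counts per let-7g count, the groups stood apart: 0.0211 and 0.0563 in Drosha_KO, 1.12 and 1.00 in Dgcr8_KO, and 0.808 and 0.599 in WT.

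In Dicer_KO, which lacks the enzyme for the second cut, each of the 7 tested guides was lower in both libraries than in both WT libraries. For let-7d, on 0 counts, this was not resolved, as the exact 95% counting interval of its ratio to WT was 0 to 1.2 (edgeR adjusted p = 0.194). let-7e, on 1 count, was 6.49-fold lower by pooled counts (exact 95% counting interval 1.16 to 257, edgeR adjusted p = 0.0635) and was not called either. The 9 guides had 37 counts in Dicer_KO together, 24 of them of let-7f. let-7i had no count and was at least 3.32-fold lower (edgeR adjusted p = 0.00346). let-7g and let-7c, with 3 counts each, were 4.9-fold lower (exact 95% counting interval 1.67 to 23.8; edgeR adjusted p = 0.0163) and 3.48-fold lower (1.19 to 16.9; edgeR adjusted p = 0.0455). Thus 3 of 7 guides were called lower, where 42.6% of entries were, and 0 were called higher, where 13.3% were. At an unadjusted p under 0.05 edgeR gave 5 lower and 0 higher, and the share over all entries was not computed there. DESeq2 gave 0 lower and 0 higher with its own size factors, where 102 and 103 of all 481 entries were. With column totals it gave 2 lower and 0 higher, where 199 and 74 of all entries were. let-7f (279 ± 168 against 1006 ± 66.5 CPM, -1.82, SE 0.78, edgeR adjusted p = 0.0677) and let-7a (70.9 ± 24.8 against 259 ± 32.3 CPM, -1.84, SE 1.17, edgeR adjusted p = 0.204) were not called, and without Dgcr8_KO replicate 1 or 2 they were (let-7f 0.00702 and 0.00731, let-7a 0.0229 and 0.0228). let-7f was also called without Drosha_KO replicate 1 or 2 (0.0292 and 0.016). The call of let-7g was lost without Dicer_KO replicate 2 (edgeR adjusted p = 0.0981), and that of let-7c without either Dicer_KO, either WT or either Dgcr8_KO library (0.0552 to 0.312). With totals that leave out the fragment-like entries of Dicer_KO, let-7g was at -1.37 (edgeR adjusted p = 0.17) and let-7c at -0.849 (edgeR adjusted p = 0.385). The median of the 7 guides was -2.30 and that of all tested entries -2.78, but with entries at no count placed at their bound the order turned, to -1.82 and -0.81.

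Dicer_KO and Drosha_KO libraries had like totals of miRNA counts, and 4 guides were lower in Dicer_KO when the groups were set side by side. let-7g was 57.5-fold lower by pooled counts (3 against 166, exact 95% counting interval 19.3 to 281; edgeR adjusted p = 1.69e-05), and let-7f fell by 3.46 on the log2 scale (SE 0.80, edgeR adjusted p = 0.00512). let-7a (6 against 62 counts, -3.42, SE 1.16, edgeR adjusted p = 0.0341) and let-7i (at least 3.45-fold, edgeR adjusted p = 0.00861) were lower too. These 4 of 7 guides were called lower where 30.4% of entries were, and 0 were called higher where 13.5% were. At an unadjusted p under 0.05, 0 guides were higher, and the share over all entries was not computed there. DESeq2 also gave 0 guides higher, beside 120 of all 481 entries with its own size factors and 67 with column totals. The call of let-7a was lost without Drosha_KO replicate 1, either Dicer_KO library or either Ago12_KO library (edgeR adjusted p 0.0517 to 0.165), and that of let-7f without Dicer_KO replicate 2 (0.0628). The call of let-7a was also lost with TMM factors (0.0601), DESeq2 size factors in edgeR (-2.20, 0.157), totals without fragment-like entries (-2.55, 0.103) and DESeq2 with its own size factors (0.0781).

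In Ago12_KO, where the hairpins can still be cut but 2 of their Argonaute carriers are missing, no guide was called against WT. The edgeR count was 0 of 7 in both directions, where 28.7% of entries were called higher and 25.8% lower. At an unadjusted p under 0.05, 1 guide was higher and 0 were lower, and the share over all entries was not computed there. DESeq2 gave 0 guides with its own size factors, beside 131 of all 481 entries higher and 142 lower. With column totals it gave 1 guide higher and 0 lower, beside 149 and 119 of all entries. That guide was let-7c, at 226 ± 68.7 against 125 ± 22.4 CPM (0.84, SE 0.33, edgeR adjusted p = 0.0507). It passed without Drosha_KO replicate 1 (0.0387), Drosha_KO replicate 2 (0.0381), Dicer_KO replicate 1 (0.05, just under the threshold) or Ago12_KO replicate 1 (0.016). let-7a stood at 482 ± 107 against 259 ± 32.3 CPM (0.89, SE 0.69, edgeR adjusted p = 0.284) and let-7f at 554 ± 172 against 1006 ± 66.5 CPM (-0.86, SE 0.65, edgeR adjusted p = 0.278). Each of the 7 lay outside the range of WT in both libraries, 3 above and 4 below. let-7g differed by 0.23 (SE 0.37), let-7i by -0.49 (SE 0.38), let-7e by -0.75 (SE 0.48) and let-7d by -1.67 (SE 0.93, on 7 counts). The median was -0.49 over the 7 guides and -0.02 over all tested entries.

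Against Dicer_KO, Ago12_KO had more of 3 guides. let-7c was 5.95-fold higher by pooled counts (125 against 3, exact 95% counting interval 1.99 to 29.3; edgeR adjusted p = 0.00728), let-7g 5.67-fold (119 against 3, 1.89 to 27.9; edgeR adjusted p = 0.0131) and let-7i at least 2.37-fold (49 against 0; edgeR adjusted p = 0.0109). Of all tested entries 38.5% were called higher, beside these 3 of 7 guides. Of all tested entries 8.94% were called lower by edgeR, beside 0 guides. At an unadjusted p under 0.05 edgeR also gave 0 guides lower, and the share over all entries was not computed there. DESeq2 gave 0 guides lower too, beside 87 of all 481 entries with its own size factors and 46 with column totals. Without Dicer_KO replicate 1, the calls of let-7c (0.0925) and let-7i (0.0672) were lost, and without Dicer_KO replicate 2 that of let-7g (0.0778). With totals that leave out the fragment-like entries, let-7c was at 1.71 (edgeR adjusted p = 0.0798) and let-7g at 1.63 (edgeR adjusted p = 0.12). With DESeq2 size factors in edgeR all 3 calls were lost (let-7c 0.348, let-7g 0.444, let-7i 0.111). The comparisons above share the libraries of WT or of a mutant, so their values are not independent of each other.

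The make-up of the family, which needs no scaling between libraries, differed by group. In WT, let-7f made up 55.0% ± 0.265 of the guide counts (SD, n = 2), let-7a 14.1% ± 0.899, let-7g 9.75% ± 0.296, let-7c 6.88% ± 1.65, let-7i 6.54% ± 1.54, let-7e 4.29% ± 0.689, let-7d 2.07% ± 0.0615, miR-98 1.29% ± 0.0296 and let-7b 0.0647% ± 0.0229. In Ago12_KO, let-7f held 33.4% ± 2.26 and let-7a 29.4% ± 0.708, with no overlap with WT for either. The ratio of let-7a to let-7f counts was 0.94 and 0.826 in Ago12_KO (exact 95% counting intervals 0.743 to 1.19 and 0.648 to 1.05), and 0.18 to 0.379 in the other 8 libraries. let-7c held 13.6% ± 0.826 in Ago12_KO. In Drosha_KO, let-7f held 50.8% ± 5.24 and let-7g 33.3% ± 2.28, and let-7c only 1.26% ± 0.743. The Dgcr8_KO libraries had unlike make-ups, with let-7f at 49.1% and 16.8%, let-7c at 15.8% and 37.6%, and let-7g at 14.1% and 37.5%. In Dicer_KO, 27 and 10 counts allow no finer reading than that let-7f held 66.7% and 60.0% of them. These shares are a description, and no test was run on them.

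**Figure D4:**
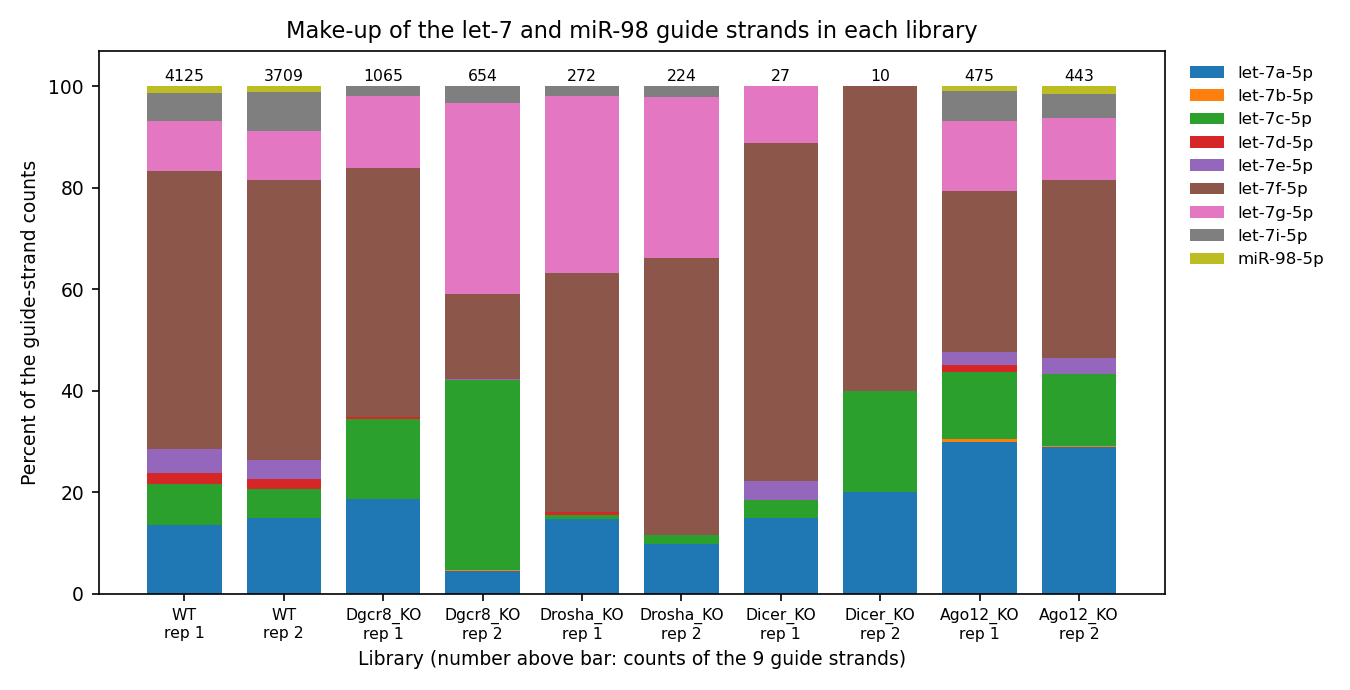
Share of each guide strand among the summed counts of the 9, in percent, for each library, with the number of guide counts above the bar. let-7f-5p fills 54.8% and 55.2% in WT, let-7a-5p is widest in Ago12_KO, let-7g-5p in Drosha_KO and Dgcr8_KO replicate 2, and the 2 Dgcr8_KO bars differ.

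The 3p strands of the same hairpins, usually the discarded passenger strands, were rarer. Of 12 such entries 10 had a count and 3 were tested, and they came to 3.28% and 3.94% of the reads of both arms in WT, 6.50% and 4.94% in Ago12_KO, 0.374% and 2.24% in Dgcr8_KO, and 0.730% and 1.75% in Drosha_KO. The highest shares, 6.90% and 16.7% in Dicer_KO, rest on 2 counts of 3p strands in each library. The 3p strands of let-7a-1 and let-7c-2 have 1 sequence in RefSeq, shown because their entries cannot be told apart and had the same count in all 10 libraries.
let-7a-1-3p and let-7c-2-3p: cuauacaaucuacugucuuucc

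This shared 3p strand stood at 4.67 and 4.12 CPM in WT, 40.1 and 52.3 in Ago12_KO, 10.4 and 24.5 in Dgcr8_KO, and 22.1 and 0 in Dicer_KO, and had no count in Drosha_KO. Both libraries of Ago12_KO and of Dgcr8_KO lay above both of WT. It rose in Ago12_KO (46.2 ± 8.65 against 4.39 ± 0.389 CPM, 3.31 on the log2 scale, SE 0.55, edgeR adjusted p = 0.000571) and in Dgcr8_KO (2.00, SE 0.62, edgeR adjusted p = 0.0144), on 26 and 13 counts, and with counts left unscaled it was at 0.447 and -0.539 and not called. The Dgcr8_KO call was lost without Dgcr8_KO replicate 2, WT replicate 1 or WT replicate 2 (edgeR adjusted p = 0.347, 0.0616 and 0.0702). In Ago12_KO these 26 counts compare with 270 of let-7a-5p and 125 of let-7c-5p, and in WT 19 compare with 1105 and 544. let-7d was the 1 hairpin with about equal arms in WT, with 177 counts of let-7d-3p (36.0 and 47.3 CPM) and 162 of let-7d-5p. Like its guide, let-7d-3p fell in Dgcr8_KO, with 1 count there (28.7-fold lower by pooled counts, exact 95% counting interval 5.09 to 1141; edgeR adjusted p = 0.00264). miR-98-3p had 41 counts in WT beside 101 of miR-98-5p. For the test of arm balance, the 3p counts of the 2 hairpins of let-7a, of let-7c and of let-7f were summed beside their shared guide. None of the 9 guides with their 3p strands reached the mean of 20 counts per arm set for it, which 84 hairpins of the table met. At 10 counts only let-7d could be tested, with limma adjusted p-values of 0.695 to 0.95.

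Several let-7 hairpins share a primary transcript with miRNAs of the miR-99/miR-100 and miR-125 families: let-7e with miR-99b and miR-125a, let-7c-1 with miR-99a and miR-125b-2, and let-7a-2 with miR-100 and miR-125b-1. Of these 11 neighbour entries 8 had a count and 5 were tested, and miR-99a had none in any library. Against WT, 1 was called higher and 2 lower in Dgcr8_KO, 1 and 1 in Ago12_KO, 0 and 3 in Dicer_KO and 0 and 2 in Drosha_KO. Over all 481 tested entries, 32.4% were called higher and 41.0% lower in Dgcr8_KO, 28.7% and 25.8% in Ago12_KO, 13.3% and 42.6% in Dicer_KO, and 26.2% and 31.6% in Drosha_KO. One of the calls in Drosha_KO, of miR-99b-3p on 1 count, was lost without Drosha_KO replicate 2, WT replicate 1 or WT replicate 2 (edgeR adjusted p = 0.194, 0.0749 and 0.0718), and its call in Dicer_KO, on 0 counts, without Dicer_KO replicate 1 or 2 (0.0838 and 0.0549). miR-99b-5p, which lies beside let-7e, fell in all 4 mutants: it stood at 2188 and 1923 CPM in WT, 76.0 and 110 in Dgcr8_KO (-4.45, edgeR adjusted p = 1.86e-06), 202 and 273 in Drosha_KO (-3.11, edgeR adjusted p = 3.10e-05), 155 and 107 in Dicer_KO (-3.95, edgeR adjusted p = 8.83e-06), and 455 and 536 in Ago12_KO (-2.05, edgeR adjusted p = 0.000209). let-7e and miR-99b-5p thus both lay below WT in all 8 mutant libraries, for let-7e on only 0 counts in Drosha_KO and 1 count in Dicer_KO. The other neighbour, miR-125a-5p, stood at 1691 and 1590 CPM in WT, 1053 and 1060 in Dgcr8_KO (-0.63, edgeR adjusted p = 0.14), 1038 and 1042 in Drosha_KO (-0.66, edgeR adjusted p = 0.166) and 2485 and 2668 in Ago12_KO (0.65, edgeR adjusted p = 0.152), and it fell in Dicer_KO (44.2 and 240 CPM, -3.59, edgeR adjusted p = 9.81e-05). DESeq2 on column totals did call miR-125a-5p in Dgcr8_KO, Drosha_KO and Ago12_KO (DESeq2 adjusted p = 0.000278, 0.00685 and 0.000172). So did DESeq2 with its own size factors (DESeq2 adjusted p = 1.5e-05, 0.0233 and 0.0078). Of 21 alternatives, 7, 6 and 6 changed the result of miR-125a-5p in these mutants. Its other strand, miR-125a-3p, rose in Ago12_KO, where let-7e and miR-99b-5p were lower than in WT: it stood at 31.0 and 24.2 CPM in WT and 140 and 118 in Ago12_KO (2.22, SE 0.39, edgeR adjusted p = 0.000758), and with counts left unscaled it turned to -0.657. miR-125b-5p was called higher in Dgcr8_KO (69.1 and 103 against 38.6 and 40.1 CPM, 1.14, edgeR adjusted p = 0.0377), a call lost without either Dgcr8_KO or either WT library (0.0605 to 0.294) and turned to -1.44 with counts left unscaled.

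**Figure D5:**
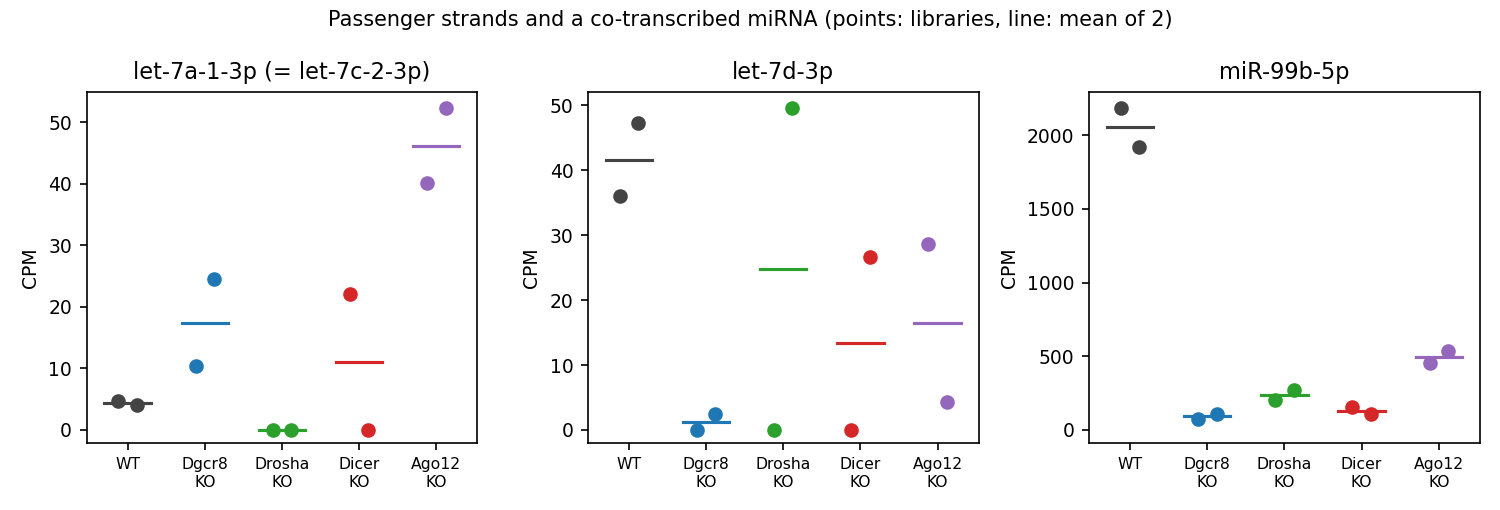
CPM of the shared 3p strand of let-7a-1 and let-7c-2, of let-7d-3p and of miR-99b-5p in the 10 libraries, by group. Points are libraries and lines are means of 2. The shared 3p strand is highest in Ago12_KO (40.1 and 52.3), and miR-99b-5p is lower in all 8 mutant libraries than in WT.

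Among 322 other entries with a mean of at least 50 CPM, those whose log2 CPM over the 10 libraries correlated best with that of the summed guides were miR-182-5p (Pearson's r = 0.95), miR-31-5p (0.94), miR-291a-3p (0.94), miR-193a-3p (0.93) and miR-146b-5p (0.93). For let-7g alone they were miR-182-5p (0.95), miR-146b-5p (0.93), miR-96-5p (0.92), miR-291a-5p (0.91) and miR-326-3p (0.90). miR-182 and miR-96 belong to a single cluster, and miR-291a to the stem cell cluster named above. miR-146b-5p stood at 5415 ± 395 CPM in Drosha_KO, 1271 ± 434 in Ago12_KO, 482 ± 7.31 in Dgcr8_KO, 321 ± 42.4 in WT and 11.1 ± 15.6 in Dicer_KO, while let-7g had Dgcr8_KO above Ago12_KO. These correlations describe 10 libraries that fall into 5 groups of unequal totals, with the low Dicer_KO values shared by all.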

How the data were processed

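Small RNA from 10 libraries (5 groups of 2) was made into TruSeq small RNA libraries, 1 ug of RNA each, per the labels' protocols. The file deposited by the authors holds raw read counts for 1907 mature miRNA entries, of which 1262 had a count. Bowtie and mm10 are named in the submitters' processing notes. The counting tool, its mismatch limit, the miRBase release and how reads with several matches were counted are not given in the sources used.

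The main test was the quasi-likelihood test of edgeR 4.0.16 in R 4.3.3 on the deposited counts. A single model held all groups (5 residual degrees of freedom), library sizes were the column totals, and entries passed filterByExpr by group (38.54 CPM, minimum count 10, minimum total 15), which kept 481 entries. Benjamini-Hochberg adjustment ran over all 481, and an adjusted p under 0.05 made a call. Each mutant was compared with WT, and 3 pairs of mutants directly. Standard errors were derived from each estimate and its F statistic. Folds against 0 counts are bounds set by 3 counts over a group's libraries, and those on few counts are pooled ratios with an exact 95% (Clopper-Pearson) interval. Family shares were compared by exact permutation (scipy 1.17.1), and 5p to 3p balance by limma 3.58.1 with a pseudocount of 0.5. Intervals and floors cover counting error only. Totals per library ran from 37476 to 2357868 counts. The procedure was tested on simulated data.

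The members and lists were chosen with earlier results of these data known. All 9 guides are named, then their 3p strands, the miRNAs transcribed with them, entries with the same seed, and the 5 entries most like them by Pearson's r of log2 CPM (prior count 2). At most 6 entries of each list are given, those of highest mean CPM. Sequences are from RefSeq on GRCm38.p6, in which all 9 guides matched. The labels do not say that replicate numbers pair the groups. Over 10 pairs of groups the correlation of same-numbered deviations ran from -0.0648 to 0.136, and 7 were positive. With 2 libraries a group, this cannot decide whether the numbers pair the groups. Alternatives were TMM factors, DESeq2 1.42.0 size factors, no scaling, totals without fragment-like entries, other filters, only the groups compared, a replicate block, DESeq2, divided repeat counts, other denominators for the family share, and leaving out each library in turn.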

Additional observations from a re-analysis of the deposited data

How the results depend on the processing

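Against WT, the median log2 fold change of all tested entries (Dgcr8_KO -0.41, Drosha_KO -0.87, Dicer_KO -2.78, Ago12_KO -0.02) moved to -0.71, -1.47, -3.06 and -0.66 with TMM factors, to -0.44, -0.75, -1.67 and -0.24 with DESeq2 size factors, and to -3.02, -6.40, -7.52 and -2.88 without scaling, which leaves the lower totals of the mutants in every fold. The low totals of miRNA counts in the Drosha_KO and Dicer_KO libraries limit what can be read of guides with few counts there. Of the single values of called entries under alternatives other than leaving out a library, 304 kept direction and call, 38 lost the call and 7 reversed, and with a library left out 280 kept both and 40 lost the call. Of values not called, 390 stayed so, 71 became called and 13 reversed under the former, and 416, 32 and 2 under the latter. Without scaling, called guides numbered 0 higher and 5 lower in Dgcr8_KO, 0 higher and 7 lower in Drosha_KO, 7 lower in Dicer_KO, 7 lower in Ago12_KO, 0 higher and 4 lower in Drosha_KO against Dgcr8_KO, and 6 higher in Ago12_KO against Dicer_KO. Most entries moved alike there: of all 481, 51 were higher and 329 lower in Dgcr8_KO, and 5 higher and 399 lower in Drosha_KO. In Dicer_KO 429 were lower and in Ago12_KO 336. In Drosha_KO against Dgcr8_KO 5 were higher and 348 lower, and in Ago12_KO against Dicer_KO 352 were higher. The log2 fold changes that reversed without scaling were, in Dgcr8_KO, let-7a -2.28, let-7c -0.394, let-7f -2.77, let-7g -0.953, let-7a-1-3p -0.539 and miR-125b-5p -1.44; in Drosha_KO, let-7a -4.15, let-7f -4.1, let-7g -2.2, let-7i -5.63 and miR-125b-5p -5.32; in Dicer_KO, let-7a-1-3p -3.94; in Ago12_KO, let-7a -2.03, let-7c -2.12, let-7g -2.68, miR-125a-5p -2.26 and miR-125a-3p -0.657. In Drosha_KO against Dgcr8_KO they were let-7a -1.87, let-7g -1.25 and let-7i -2.08. With totals without fragment-like entries, 1 guide was lower in Dgcr8_KO, 2 higher in Drosha_KO, 1 lower in Dicer_KO, 1 higher in Ago12_KO, and 1 higher in Ago12_KO against Dicer_KO. Here 6 guides were tested, and over 489 entries the same counts were 190, 125, 143, 138 and 108. With DESeq2 on column totals, 1 was lower in Dgcr8_KO and 1 higher in Ago12_KO, beside 190 and 149 of all 481 entries. DESeq2 size factors in edgeR gave 2 higher in Drosha_KO, 1 lower in Dicer_KO and 0 higher in Ago12_KO against Dicer_KO, and DESeq2 with its own gave 2, 0 and 0. Over all 481 entries these counts were 128, 106 and 70 with the former, and 144, 102 and 70 with the latter. With no filter, 3 were higher in Drosha_KO and 2 in Drosha_KO against Dgcr8_KO, and with a minimum mean of 10 CPM 2 were higher in Drosha_KO. The unfiltered fit tested all 9 guides, and 175 and 45 of its 1262 entries were called higher. The minimum mean gave 149 of 544 entries higher in Drosha_KO. With only the groups compared, 3 were higher in Drosha_KO, 7 lower in Dicer_KO, and 1 higher and 1 lower in Ago12_KO. Each of these fits tested 8 guides. Of all their entries, 107 of 495 were higher in Drosha_KO and 232 of 474 lower in Dicer_KO. In Ago12_KO 151 of 504 were higher and 153 lower. TMM factors gave 5 lower in Dicer_KO and 2 lower in Ago12_KO, and divided repeat counts gave 1 higher in Ago12_KO. Of all 481 entries 219 and 179 were lower with TMM factors. Dividing repeat counts left 6 guides tested, and 141 of 475 entries were higher in Ago12_KO. Whether the replicate numbers pair the groups is not known, and a replicate block gave 2 guides higher in Drosha_KO, beside 125 of 481 entries. There let-7f was called (1.61, edgeR adjusted p = 0.0386), and the block moved no other count of guides by over 1.5 times. With it, let-7i in Dgcr8_KO (edgeR adjusted p = 0.0859) and let-7c in Dicer_KO (0.0608) lost their calls, and let-7f in Dicer_KO (0.0346) gained one. With each library left out in turn, guides called higher and lower ran from 2 to 3 and 1 to 4 in Dgcr8_KO, 1 to 3 and 0 to 1 in Drosha_KO, 0 and 1 to 4 in Dicer_KO, and 0 to 1 and 0 to 1 in Ago12_KO. They ran from 0 to 2 and stayed at 1 in Drosha_KO against Dgcr8_KO, were 0 and 2 to 4 in Dicer_KO against Drosha_KO, and 1 to 4 and 0 in Ago12_KO against Dicer_KO. Shares over all entries were not computed for the fits with a library left out. Without Dgcr8_KO replicate 1, let-7a (-1.86) and let-7f (-1.9) reversed in Dgcr8_KO, and without replicate 2 they were at 1.4 and 0.845. The difference of the family share from WT, in percentage points, ran from -0.0228 (without Dgcr8_KO replicate 1) to 0.185 in Dgcr8_KO, 0.373 to 0.506 in Drosha_KO, -0.156 to -0.123 in Dicer_KO, and -0.0469 to 0.0102 (without Ago12_KO replicate 1) in Ago12_KO. Per 100 counts of miR-290 to miR-295, Dicer_KO and Ago12_KO were above WT by 0.281 and 0.429, the former by replicate 1 alone (1.65 and 0.824, against 0.948 and 0.963 in WT). Except where the text gives a value for it, the cause of these changes was not tested.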

Other observations

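The guides differed in how closely they varied together over the 10 libraries, and no grouping of them was tested. The Pearson correlation of log2 CPM was 0.86 between let-7a and let-7f, 0.79 between let-7f and let-7g, 0.78 between let-7g and let-7i, and 0.71 between let-7a and let-7g. let-7d, which lies in the same lincRNA exon as let-7a-1 and let-7f-1, correlated with let-7a at 0.51 and with let-7f at 0.48. let-7c, a single base (A19G) from let-7a, correlated with it at 0.19 and with let-7f at 0.01, and let-7e, a single base (U9G) from let-7a, correlated with it at -0.01. Within 1 group, Dgcr8_KO, the ratio of let-7c to let-7a counts was 0.848 in replicate 1 and 8.48 in replicate 2, with exact 95% counting intervals of 0.687 to 1.05 and 5.76 to 12.9, and it was 0.387 to 0.596 in WT. Values in between were those of let-7i with let-7d (0.55) and with let-7c (0.52). let-7d and let-7e had no count in several libraries, so their values there lie at the floor. The libraries share groups of unequal totals, so these values are a description.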
